A study of Homo sapiens with 18 samples.

Results

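Silencing of RAD21, a subunit of the cohesin complex, was examined after 48 h in U2OS-MycER cells that had not received OHT. U2OS cells come from a human osteosarcoma, and the U2OS-MycER line also carries Myc fused to the estrogen receptor, which stays inactive until 4-hydroxytamoxifen (OHT) is given. The 5 libraries of this comparison, of 18 in the series, were 2 from cells transfected with siRNAs against RAD21 (siRAD21) and 3 from cells transfected with a control siRNA (siCtrl). Both groups were reverse-transfected with RNAiMAX lipofectamine, received ethanol in place of OHT at that moment, and were harvested after 48 h for rRNA-depleted total RNA. The cells of both groups therefore hold MycER without its ligand. The comparison covered 14993 of the 23399 genes in the table, namely those with a mean of at least 1 eRPKM (exonic reads scaled to the length of the transcript and the depth of the library) over the 18 libraries. Beside it stand 2 comparisons that share no library with it: siRAD21 against siCtrl at 24 h without OHT (2 libraries each), and siRAD21 OHT against siCtrl OHT at 48 h (2 and 3 libraries, 400 nM OHT for 48 h).

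Cohesin is a ring of SMC1A, SMC3, RAD21 and a STAG subunit that encircles DNA. It is loaded by NIPBL and MAU2, released by WAPL and halted by CTCF, and in this way extrudes and anchors chromatin loops that bring enhancers and promoters together or keep them apart. The same ring holds sister chromatids together from S phase, when ESCO2 acetylates it, until anaphase, when separase (ESPL1) cleaves RAD21. Cohesin is therefore known both as an organizer of transcription and as a factor of DNA replication, repair and chromosome segregation.

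The siCtrl libraries held 9742318, 10010519 and 10786815 reads on genes and the siRAD21 libraries 10912005 and 10202656, as recovered from the deposited values. Across the genes tested, libraries of the same group correlated at r = 0.982 to 0.985 and libraries of different groups at r = 0.927 to 0.934, on the log2(eRPKM + 0.5) scale. The siCtrl libraries differed among themselves by 2.54 to 3.39 times the sampling noise of their reads (chi-square per gene) and the siRAD21 pair by 1.78 times. The paper calls its RNA-seq replicates biological, but the labels do not say that they came from separate cultures. The p-values therefore measure a spread between samples that may be technical. That spread was pooled over all 18 libraries of the series, so it rests mostly on libraries outside this comparison. Of the osteoblast lineage markers RUNX2, CDH11, ALPL and SPP1 were read in all 5 libraries, IBSP averaged 0.0404 eRPKM in siCtrl cells, and TWIST1 was listed at 0. Among 15 markers of other cell types, 4 reached the level for testing, all of them epithelial (KRT14, KRT5, EPCAM and CLDN4), while CD3E and HBB were listed at 0. Since the RNA came from whole cultures, fewer cells in a given state and less RNA per cell cannot be told apart.

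Silencing was deep and even. RAD21 stood at 93.3, 96.9 and 89 eRPKM in the siCtrl libraries and 11.2 and 11.3 in the siRAD21 libraries. Both siRAD21 libraries lay far below every siCtrl library and close to each other. On average RAD21 fell from 93.1 ± 3.96 to 11.2 ± 0.105 eRPKM (SD, n = 3 and 2), a log2 fold change of -2.99 with a standard error of 0.047 and an adjusted p of 2.84e-14 (limma, Benjamini-Hochberg adjustment over all genes tested, as for every adjusted p here). In a limma fit of the 5 libraries alone the adjusted p of RAD21 was 2.25e-06. The log2 fold change of RAD21 was -1.92 at 24 h and -3.02 with OHT at 48 h. A gene was called when its adjusted p was below 0.05 and its log2 fold change above 0.5 or below -0.5.

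By that rule 1883 genes rose (12.6% of those tested) and 1676 fell (11.2%) at 48 h, while 11434 were not called, and the median log2 fold change of all genes was -0.01. At 24 h, 874 genes rose (5.83%) and 390 fell (2.6%). With OHT at 48 h, 1270 rose (8.47%) and 1161 fell (7.74%). The effect at 48 h differed from that at 24 h for 577 genes in the upward direction (3.85%) and 1029 in the downward direction (6.86%), by the same thresholds applied to the difference itself. The effect without OHT differed from that with OHT for 595 genes (3.97%) upward and 499 (3.33%) downward. These percentages are the background against which the counts of gene groups are to be read.

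**Figure D1:**
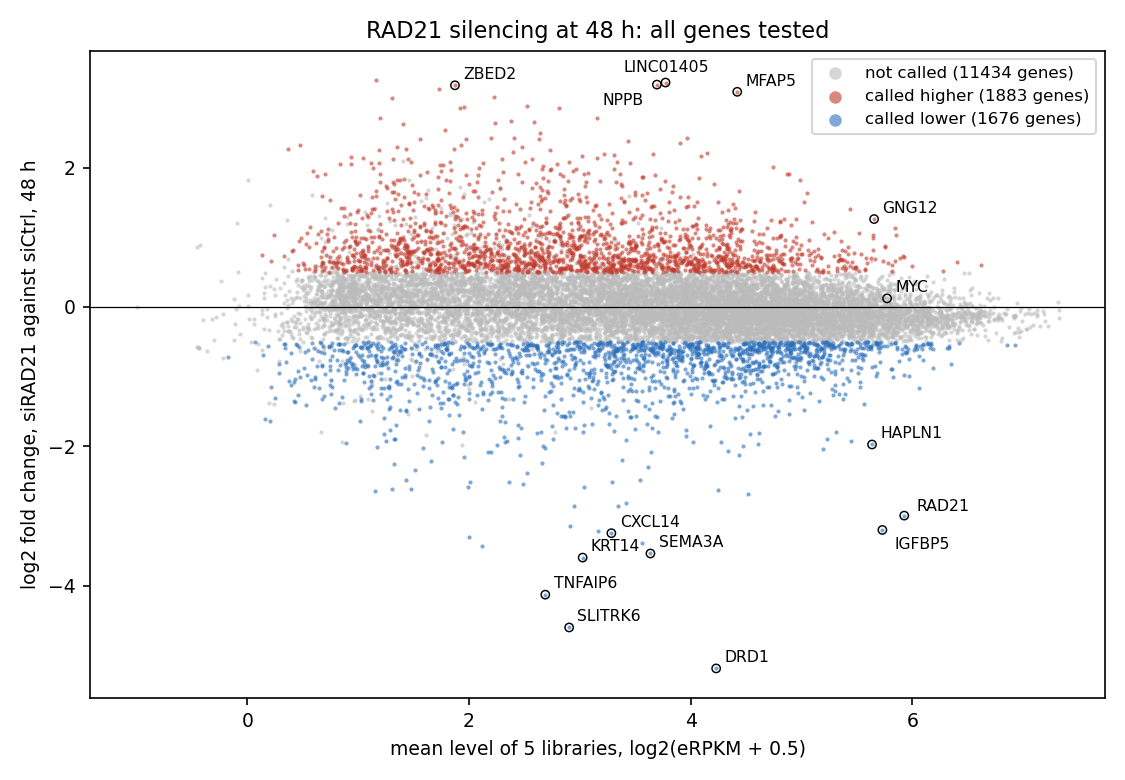
Each point is 1 of the 14993 genes tested, with its mean level over the 5 libraries as log2(eRPKM + 0.5) on the x axis and its log2 fold change in siRAD21 against siCtrl cells at 48 h on the y axis. The 1883 genes called higher are red, the 1676 called lower are blue and 11434 not called are grey, and DRD1, SLITRK6 and TNFAIP6 lie below all other genes.

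Of 20 genes of the cohesin machinery tested, RAD21 included, 5 fell (25%) and 1 rose, and the median log2 fold change was -0.19. The falls beside RAD21 itself were in genes of sister chromatid cohesion and its resolution: CDCA5 (sororin, which protects acetylated cohesin) from 70.4 ± 3.5 to 40.8 ± 2.85 eRPKM, SGOL1 (shugoshin, the protector at centromeres) from 14 ± 0.22 to 8.52 ± 0.48 eRPKM, ESCO2 from 31.4 ± 0.717 to 20.9 ± 1.43 eRPKM and ESPL1 from 22.5 ± 2.09 to 15.6 ± 0.312 eRPKM. Their log2 fold changes were -0.78, -0.68, -0.58 and -0.51. MAU2, the partner of the loader NIPBL, rose from 7.65 ± 0.44 to 11.1 ± 0.0259 eRPKM (log2 0.51). Both MAU2 and ESPL1 lie near the threshold of 0.5. The MAU2 call was lost without siCtrl replicate 2, and that of ESPL1 without siCtrl replicate 1, siCtrl replicate 3 or siRAD21 replicate 1. The ring partners SMC3 (log2 -0.22), SMC1A (0.22) and STAG2 (-0.00), the loader NIPBL (0.33) and CTCF (-0.42) were not called. CTCF stood at 40.7, 42 and 42.4 with siCtrl and 30.5 and 31.5 with siRAD21, a change below the threshold. The effect at 48 h was further below that at 24 h for 3 members of this list, and for none did it differ with OHT by the thresholds.

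The genes with the largest rises were in transcripts that were low in siCtrl cells. MFAP5, a glycoprotein of the elastic fibre microfibrils (chr12:8789942-8815484, minus strand, GRCh37), stood at 4.59, 4.82 and 5.15 eRPKM in the siCtrl libraries and 43.1 and 46.9 in the siRAD21 libraries. NPPB, which encodes the B-type natriuretic peptide, stood at 2.06, 2.72 and 2.92 with siCtrl and 27 and 27.5 with siRAD21. DCLK1, a microtubule-binding kinase, stood at 1.46, 1.51 and 1.58 with siCtrl and 14.1 and 13.9 with siRAD21. The largest rises and falls were taken from called genes whose siCtrl and siRAD21 libraries do not overlap, so their separation is given by the choice. The rises of these 3 genes were 9.27-fold, 10.6-fold and 9.24-fold in the means. The log2 fold changes were 3.09 (SE 0.061, adjusted p = 3.82e-13), 3.19 (SE 0.17, adjusted p = 3.34e-09) and 2.85 (SE 0.10, adjusted p = 8.25e-11).

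The other 9 of the 12 largest rises were LINC01405 (log2 3.22), ZBED2 (3.18), LINC01164 (2.89), KLHL30 (2.87), SCEL (2.71), IL24 (2.66), CARD16 (2.66), SAA1 (2.54) and ALS2CL (2.49). SCEL encodes sciellin, a protein of the cornified envelope of keratinocytes, and rose from 2.27 ± 0.267 to 17.6 ± 0.108 eRPKM. IL24 is a cytokine of the IL-10 family and rose from 1.18 ± 0.385 to 9.96 ± 0.711 eRPKM. ZBED2, a zinc finger protein, was read 0.0932, 0.453 and 0.631 with siCtrl and 7.65 and 6.99 with siRAD21, from 2 to 15 reads a library with siCtrl and 157 to 184 with siRAD21. SAA1, an acute phase serum amyloid protein, was read 0.303, 0.738 and 0.959 with siCtrl and 4.47 and 8.25 with siRAD21, and its siCtrl level rests on 2 to 7 reads. SAA1 and SAA2 are close copies, and CARD16 overlaps CASP1, so the reads of either may be shared with its neighbour. LINC01405 and LINC01164 are long noncoding RNAs of unassigned function here.

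The largest falls took several genes to the edge of detection. DRD1, the dopamine D1 receptor (chr5:174867039-174871185, minus strand, GRCh37), stood at 33.5, 32.1 and 25 eRPKM in the siCtrl libraries and 0.299 and 0.378 in the siRAD21 libraries, so that 910 to 1102 reads a library became 11 to 13. It was 89.3-fold lower in the means, with a log2 fold change of -5.19 (SE 0.18, adjusted p = 6.27e-11). SLITRK6, a transmembrane protein of neurite outgrowth (chr13:86366925-86380818, minus strand, GRCh37), was read 12.8, 11 and 11.1 with siCtrl and 0 and 0 with siRAD21. Against the floor of 3 reads per library it was at least 171-fold lower. TNFAIP6, a hyaluronan-binding protein of inflamed tissue, was read 8.43, 10.9 and 10.2 with siCtrl and 0.193 and 0 with siRAD21 and was at least 49.3-fold lower against the same floor.

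IGFBP5, which binds insulin-like growth factors, was the most abundant of the other 9 and stood at 91.5, 75.6 and 78.7 with siCtrl and 9.12 and 7.82 with siRAD21 eRPKM, 9.67-fold lower in siRAD21 cells (log2 -3.2, SE 0.12, adjusted p = 9.94e-11). SEMA3A, a repulsive guidance molecule, stood at 19.7, 19.1 and 18.5 with siCtrl and 1.08 and 1.3 with siRAD21, 16-fold lower (log2 -3.54). CXCL14, a chemokine, stood at 13.7, 13.4 and 16.9 with siCtrl and 1.25 and 0.944 with siRAD21, 13.4-fold lower (log2 -3.25, adjusted p = 5.54e-11). SOSTDC1, an antagonist of BMP and Wnt signalling, was read 5.94, 5.49 and 5.77 with siCtrl and 0.0741 and 0.198 with siRAD21, from 136 to 154 reads with siCtrl to 2 to 5 with siRAD21. KRT14, a basal keratin (chr17:39738531-39743147, minus strand, GRCh37), stood at 11.8, 12.5 and 12.7 with siCtrl and 0.728 and 0.419 with siRAD21, 21.5-fold lower (log2 -3.6, adjusted p = 3.89e-09). The other 4 of the 12 largest falls were LINC00639 (log2 -3.42), the transcriptional coregulator MN1 (-3.38), the steroid dehydrogenase HSD17B3 (-3.21) and the Wnt receptor kinase ROR1 (-3.14). MN1 varied more within siCtrl than the others, with 24.1, 13.5 and 16.4 with siCtrl and 1.35 and 1.11 with siRAD21.

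**Figure D2:**
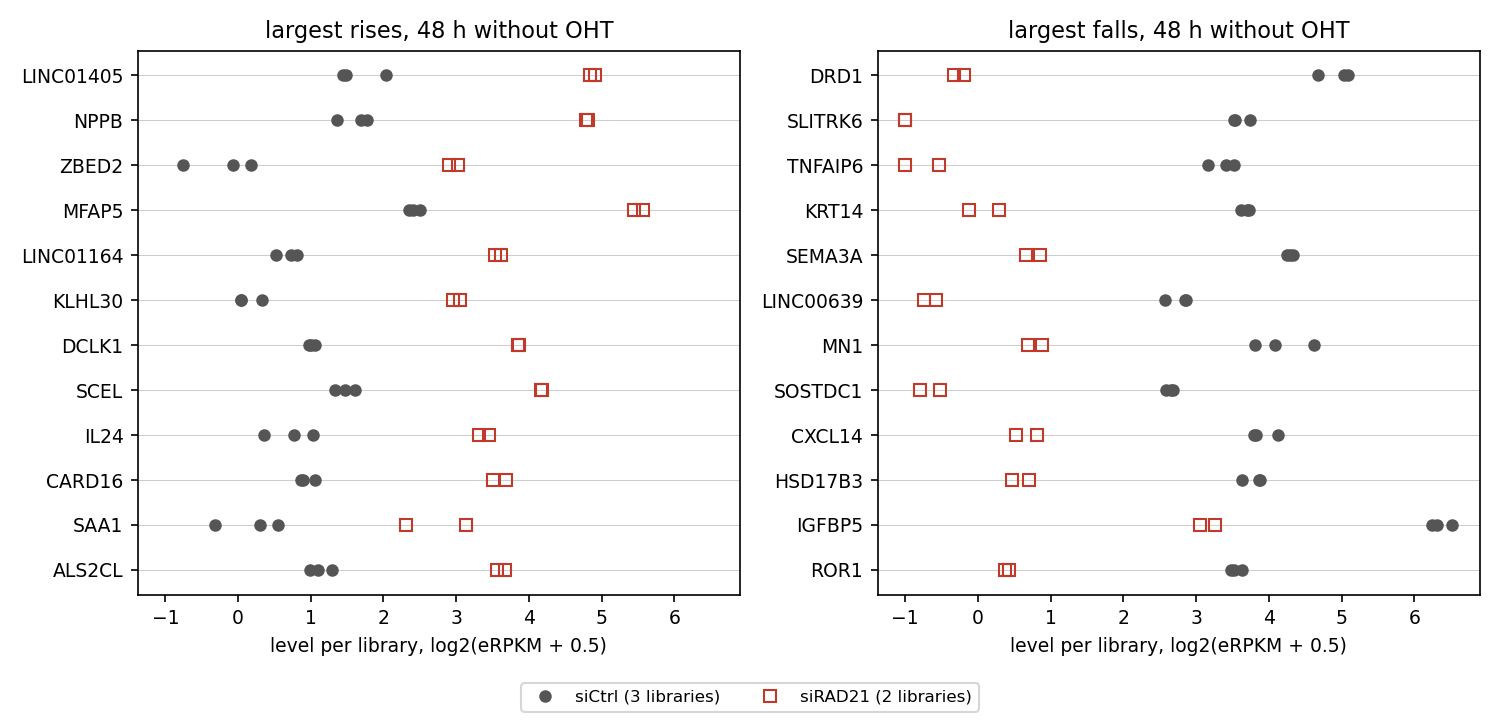
Points give log2(eRPKM + 0.5) of each library for the 12 largest rises (left) and the 12 largest falls (right) at 48 h without OHT, with siCtrl libraries as filled grey circles (3) and siRAD21 libraries as open red squares (2). The genes were chosen from those in which squares and circles do not overlap, so their separation is given by the choice. SLITRK6 lies at the lowest value of the axis (0 eRPKM) in both siRAD21 libraries.

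Among the more abundant transcripts, the largest gains in eRPKM were in SFTA1P (a pseudogene RNA, 38.3 to 84.5), GNG12 (a G protein gamma subunit, 31.8 to 77), ITM2C (an integral membrane protein, 25.6 to 68.7), cyclin D2 (CCND2, 81 to 123), MIR1204 (40.9 to 82) and MFAP5. Log2 fold changes of the first 5 were 1.13, 1.26, 1.41, 0.60 and 1.03. MIR1204 lies within the PVT1 locus next to MYC and rests on 23 to 59 reads a library, which may come from the PVT1 transcript, itself higher at log2 0.55. The largest losses in eRPKM after RAD21 and IGFBP5 included those in HAPLN1, a link protein of the hyaluronan matrix, from 70.4 ± 1.97 to 17.6 ± 0.678 eRPKM, in PPP1R14B, a phosphatase inhibitor, from 84.9 ± 1.35 to 37.8 ± 0.913 eRPKM, and in the histone gene HIST2H2AC from 138 ± 4.16 to 94.7 ± 8.18 eRPKM. Their log2 fold changes were -1.97, -1.16 and -0.54. Because PCR duplicates had been removed, the number of reads a gene can keep is limited. HIST2H2AC stood at 72% of that limit and RAD21 at 48.5%, so folds of the most abundant genes are understated. The HIST2H2AC call was lost under quantile normalization and without siRAD21 replicate 1.

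DNA replication genes fell as a group. Origin licensing loads the MCM2 to MCM7 helicase ring with ORC, CDC6 and CDT1, and firing adds CDC45 and the GINS complex to it. Of 34 genes of licensing and firing, 22 fell (64.7%) and none rose, the median log2 fold change was -0.68, and 33 were below 0. GINS1 was read 37.7, 39.5 and 38.7 with siCtrl and 14.4 and 15.6 with siRAD21 eRPKM, GINS2 48.5, 52.7 and 49.8 with siCtrl and 19.8 and 21.7 with siRAD21, and MCM10, which helps to activate the helicase, 30.2, 34 and 31.8 with siCtrl and 13.6 and 13.5 with siRAD21. Each of these was below every siCtrl library in both siRAD21 libraries, with log2 fold changes of -1.34 (SE 0.052), -1.26 (SE 0.076) and -1.21 (SE 0.049) and adjusted p of 1.67e-10, 9.46e-09 and 2.20e-10. ORC1 fell from 28 ± 1.36 to 12.7 ± 0.854 eRPKM, CDC45 from 38.2 ± 1.41 to 19.4 ± 2.58 eRPKM and CLSPN (claspin, a fork-associated checkpoint mediator) from 24.2 ± 0.654 to 12.1 ± 0.674 eRPKM. The subunits of the MCM ring, singled out here after their values were seen, fell unequally: log2 -0.84 for MCM2, -0.66 for MCM3, -0.85 for MCM4, -0.55 for MCM5 and -0.84 for MCM6, while MCM7 was not called (79.8, 81 and 78.6 with siCtrl and 67.7 and 69.9 with siRAD21 eRPKM, log2 -0.21). The MCM5 call was lost under quantile normalization and without siRAD21 replicate 1. Of the origin recognition complex, ORC2, ORC3, ORC4, ORC5 and ORC6 were not called (log2 -0.16, -0.48, -0.04, -0.29 and -0.45).

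Promoters of these genes are shown because their best known regulators, the E2F factors at G1/S genes and the DREAM and MuvB complexes at mitotic genes, read short motifs near the start site. Whether these factors had a part in the falls was not tested. The stretches below are 120 bases long and lie upstream of the start sites, from RefSeq on GRCh38.p14, written 5′ to 3′ on the strand of the gene. They run from -120 to -1 in GINS2, CDT1 and KIF11, and from -142 to -23 in MCM6. That of SPC25 runs from -250 to -131, with its CHR element at -247. The first 3 are examples of licensing genes with an E2F motif upstream of the start site. They are GINS2 (chr16:85688955-85689074, minus strand), MCM6 (chr2:135876466-135876585, minus strand) and CDT1 (chr16:88803669-88803788, plus strand). The last 2 are examples of mitotic genes with a CHR element upstream of the start site. They are SPC25 (chr2:168890561-168890680, minus strand) and KIF11 (chr10:92593010-92593129, plus strand). Not every gene with a motif in the windows described below was eligible to be shown, so these examples do not rank the falls. Capitals mark the motif letters.
GINS2: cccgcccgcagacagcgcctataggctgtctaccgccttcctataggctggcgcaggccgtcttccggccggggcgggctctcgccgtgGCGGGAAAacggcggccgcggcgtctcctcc
MCM6: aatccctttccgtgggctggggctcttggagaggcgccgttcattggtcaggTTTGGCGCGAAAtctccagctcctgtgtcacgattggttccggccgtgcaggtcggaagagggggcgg
CDT1: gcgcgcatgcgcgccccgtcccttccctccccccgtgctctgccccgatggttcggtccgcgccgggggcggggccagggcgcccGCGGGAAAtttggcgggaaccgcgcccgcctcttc
SPC25: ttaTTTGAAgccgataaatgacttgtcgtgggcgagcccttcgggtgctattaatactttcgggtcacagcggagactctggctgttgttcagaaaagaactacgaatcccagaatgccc
KIF11: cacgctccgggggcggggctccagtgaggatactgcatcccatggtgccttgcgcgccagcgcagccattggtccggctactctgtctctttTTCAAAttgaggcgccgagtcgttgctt

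Motifs were searched on both strands by their letters. E2F was TTTGGCGC, TTTCCCGC, TTTGCCGC or TTTCGCGC, the CHR element was TTTGAA, and the CCAAT box was searched as written. The E-box read by MYC and MAX was the hexamer CACGTG, AP-1 was the heptamer TGACTCA with its reverse complement, and the TEAD motif was GGAATG. In the MCM6 stretch 2 E2F matches overlap and are capitalized as 1 run. Windows from 250 bases before to 50 after the start were found for 10613 of 12979 tested protein-coding genes (81.8%). An E2F motif was in 5.36% of all these windows, in 8.65% of those of genes called lower, in 13 of 28 of the licensing list (46.4%), and in 4 of 40 of the mitotic list (10%). Of the windows of p53 targets, which rose, 3 of 22 (13.6%) held one. Without the 50 transcribed bases the share was 4.43% over all genes and 21.4% in the licensing list. A CHR element was in 9.81% of all windows, in 12.7% of those of genes called lower, in 27 of 40 of the mitotic list (67.5%), and in 1 of 28 of the licensing list (3.57%). CCAAT was in 36.6% of all windows, in 80% of the mitotic ones, in 60.7% of the licensing, 56% of the fork and 59.1% of the p53 target windows. Genes called lower held an E-box in 8.65% of windows against 10.1% of all, although 5 of 28 licensing windows (17.9%) and 5 of 40 mitotic windows (12.5%) held one. So did 4 of 22 p53 target windows (18.2%). Genes called lower held an AP-1 site in 2.59% against 3.13%, and a TEAD site in 10.5% against 11%. Among genes called higher only 77.7% had a window, below the 80% set as a minimum, so the shares in that group are not given. The shares of the lists count all tested members, called or not. Such genes are known for these motifs, so the shares describe the lists and not the effect of the silencing. A match describes these letters in these windows and is no proof of binding.

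The genes of the replication fork itself behaved alike. Of 29 polymerase, clamp, ligase and chromatin assembly genes, 19 fell (65.5%), none rose and 28 were below 0, with a median log2 fold change of -0.64. CHAF1B, a subunit of the CAF-1 histone chaperone, fell from 14.9 ± 1.37 to 4.71 ± 0.217 eRPKM (log2 -1.56), its partner CHAF1A from 28.9 ± 0.77 to 13.2 ± 0.173 eRPKM (-1.1), the polymerase epsilon subunit POLE3 from 62.5 ± 1.72 to 23.6 ± 1.63 eRPKM (-1.39) and the primase PRIM1 from 43.3 ± 4.01 to 18.2 ± 1.96 eRPKM (-1.23). POLA1, the catalytic subunit of polymerase alpha (log2 -1.07), and the nuclease and helicase DNA2 (-1.03) fell too. The sliding clamp PCNA (log2 -0.33), the flap endonuclease FEN1 (-0.47) and the ligase LIG1 (-0.43) were not called, and POLD4 was the one member above 0 (log2 0.45, not called). Of 12 genes of deoxynucleotide supply, 8 fell and 1 rose. The subunit RRM2 of ribonucleotide reductase fell from 74.9 ± 0.989 to 50.6 ± 1.53 eRPKM, whereas RRM2B, the p53-inducible small subunit, rose from 47.5 ± 2.53 to 78.9 ± 4.83 eRPKM (log2 0.72). Without siRAD21 replicate 1 only 4 genes of this list fell, and under quantile normalization 3.

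Genes of homologous recombination and the Fanconi anemia pathway, which repair broken and crosslinked DNA in S and G2, fell most often of all lists: 20 of 27 (74.1%), with a median log2 fold change of -0.66 and every member below 0. The helicase BLM fell from 22.8 ± 1.81 to 9.05 ± 0.249 eRPKM and the nuclease EXO1 from 30.4 ± 1.48 to 12.8 ± 0.0867 eRPKM, with log2 fold changes of -1.28 and -1.21 and adjusted p of 7.99e-10 and 1.91e-10. FANCB (-0.97), FANCM (-0.96) and RAD54L (-0.89) followed. Of 19 checkpoint kinases and adaptors, 6 fell and 1 rose. CHEK1, the effector kinase of ATR, fell from 18.8 ± 1.39 to 12.3 ± 0.187 eRPKM (log2 -0.59) and PKMYT1, an inhibitor of CDK1, from 20.9 ± 1.52 to 11.2 ± 0.0407 eRPKM (-0.87). RAD50 of the MRN complex rose from 8.51 ± 0.182 to 13.3 ± 1.07 eRPKM (log2 0.61), while ATM (-0.00), ATR (0.23) and CHEK2 (-0.23) were not called.

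Mitotic genes were lower as well, with a median closer to 0. All 50 kinases, spindle and kinetochore genes tested were below 0, 19 of them were called (38%), and the median log2 fold change was -0.42. CENPU, of the constitutive centromere network, stood apart with 31.8, 35.1 and 29.1 with siCtrl and 7.91 and 9.57 with siRAD21 eRPKM (log2 -1.82). The kinesin CENPE fell from 25.7 ± 0.482 to 12.4 ± 0.54 eRPKM, the spindle checkpoint protein MAD2L1 from 74.8 ± 4.05 to 38 ± 3.49 eRPKM and its kinase TTK from 33.6 ± 2.49 to 17.6 ± 0.125 eRPKM, with log2 fold changes of -1.03, -0.97 and -0.92. SPC25, whose promoter is shown above, fell from 36.7 ± 0.597 to 21.6 ± 0.615 eRPKM and KIF11 from 44.3 ± 0.785 to 26.3 ± 1.53 eRPKM. AURKA (log2 -0.44), CCNB1 (-0.32), PLK1 (-0.32), TOP2A (-0.37) and MKI67 (-0.24) were not called.

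Among 26 genes of the G1/S switch 9 fell and 1 rose. SKP2, the F-box protein that marks p27 for degradation, stood at 53.7, 57.3 and 54.3 with siCtrl and 15.6 and 15.5 with siRAD21 eRPKM (log2 -1.79, SE 0.047, adjusted p = 7.81e-12), the largest fall of the list. Cyclin E2 (CCNE2) fell from 20.8 ± 2.32 to 9.13 ± 0.565 eRPKM, the phosphatase CDC25A from 34.8 ± 1.62 to 18.4 ± 0.747 eRPKM, E2F1 from 38.1 ± 2.67 to 20.8 ± 0.169 eRPKM and E2F2 from 22.6 ± 1.67 to 13.1 ± 0.113 eRPKM, and the pocket protein p107 (RBL1) from 18.7 ± 1.12 to 10.5 ± 0.143 eRPKM. Cyclin D2 (CCND2) rose from 81 ± 1.35 to 123 ± 4.16 eRPKM, while cyclin D1 (log2 0.04), cyclin D3 (-0.31), CDK4 (-0.32), CDK6 (0.26) and RB1 (0.07) were not called. Of 6 CDK inhibitors tested, CDKN2B (p15) fell from 2.5 ± 0.371 to 0.759 ± 0.0648 eRPKM and the others were not called. CDKN1A (p21) was read 76, 78.7 and 78.7 with siCtrl and 106 and 114 with siRAD21, with a log2 fold change of 0.49, just under the threshold.

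Replication-dependent histone genes are transcribed in S phase, and their messages carry a stem-loop in place of a poly(A) tail, so they are seen here because the RNA was rRNA-depleted and not selected for poly(A). Of 47 tested, 11 fell (23.4%), 1 rose and 43 were below 0, with a median log2 fold change of -0.34. HIST1H2BG fell from 43.1 ± 5.1 to 15.2 ± 1.54 eRPKM (log2 -1.47) and HIST1H2AE from 24.2 ± 0.391 to 11.3 ± 1.25 eRPKM (-1.07). HIST1H2BB rose from 2.68 ± 0.602 to 5.19 ± 1.02 eRPKM (log2 0.85). Without siRAD21 replicate 1 only 7 fell, and under quantile normalization 6, while 25 fell with the removal of duplicates undone. Members of these clusters are near-identical in places, so reads may be split between copies.

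**Figure D3:**
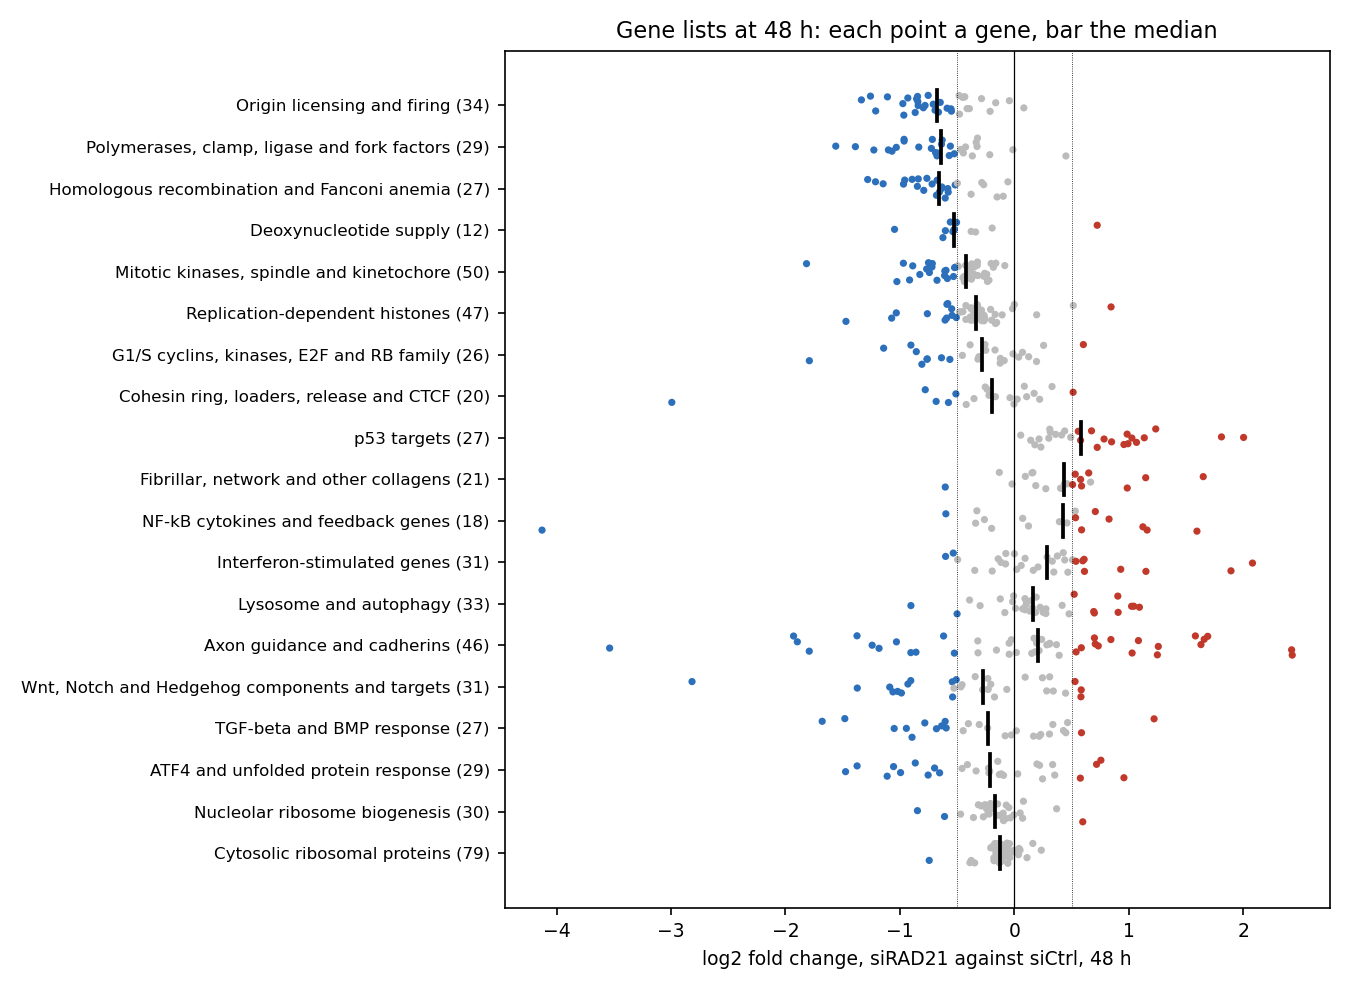
Each point is a tested member of a gene group, placed on the x axis by its log2 fold change in siRAD21 against siCtrl cells at 48 h (red called higher, blue called lower, grey not called), black bars are group medians, dotted lines mark -0.5 and 0.5, and the number of tested members follows each name. All recombination and mitosis genes lie to the left of 0, as do 33 of 34 licensing and 28 of 29 fork genes, and all p53 targets lie to the right. Group medians are -0.68 for licensing, -0.64 for fork, -0.66 for recombination, -0.42 for mitosis and 0.58 for p53 targets.

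Targets of p53 rose. Of 27 tested, 15 were called higher (55.6%), none was called lower and every member was above 0, with a median log2 fold change of 0.58. TP53INP1, a stress-induced nuclear protein that promotes apoptosis and autophagy, stood at 11.4, 11 and 12.4 with siCtrl and 47.6 and 48.6 with siRAD21 eRPKM, and GDF15, a secreted stress cytokine, at 6.59, 6.74 and 5.56 with siCtrl and 25.3 and 21.4 with siRAD21. Both rose by more than 3-fold without overlap of the groups, with log2 fold changes of 2.0 (SE 0.087, adjusted p = 4.53e-10) and 1.81 (SE 0.15, adjusted p = 2.63e-07). PLK3, a stress kinase, rose from 17.7 ± 2.11 to 42.1 ± 0.469 eRPKM, ZMAT3, an RNA-binding protein, from 17 ± 1.22 to 37.9 ± 0.721 eRPKM, the death receptor FAS from 8.7 ± 0.424 to 18.8 ± 0.341 eRPKM and the antiproliferative BTG2 from 34.9 ± 1.56 to 71.6 ± 3.5 eRPKM. The classic feedback targets MDM2 (log2 0.30), CCNG1 (0.18), PPM1D (0.06) and the effector BAX (0.31) were not called. Across the 18 genes of the BCL2 family 6 rose and 3 fell. BBC3 (PUMA), also a p53 target, rose from 19.2 ± 2.9 to 38.5 ± 2.05 eRPKM (log2 0.99) and the antiapoptotic BCL2L1 from 68.8 ± 1.91 to 108 ± 2.87 eRPKM (0.64). BMF, a BH3-only protein, fell from 11.8 ± 1.57 to 6.39 ± 0.327 eRPKM. MCL1 (0.13), BCL2 (-0.34) and PMAIP1 (0.09) were not called.

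MYC itself did not pass the test at 48 h. Its libraries held 54.6, 49.9 and 52.3 with siCtrl and 57.5 and 56.4 with siRAD21 eRPKM, with a log2 fold change of 0.12 (SE 0.063, adjusted p = 0.109). Reads of the MycER transgene cannot be separated from those of the endogenous gene in these values, so a change of endogenous MYC alone cannot be read from them. The paper reports that Myc fell upon RAD21 silencing, as mRNA by quantitative RT-PCR and as protein, with MycER unaffected. Of 11 genes of the MYC, MAX and MXD network 3 rose and 1 fell. The antagonists MXD4 (from 14.6 ± 0.492 to 32.1 ± 1.88 eRPKM, log2 1.12), MXI1 (from 17.7 ± 0.368 to 31.5 ± 0.307 eRPKM, 0.81) and MNT (from 5.6 ± 1.36 to 10.2 ± 0.44 eRPKM, 0.84) rose, and MYCL fell from 7.14 ± 0.909 to 2.94 ± 0.207 eRPKM (log2 -1.15). MAX was not called (log2 -0.02). Nucleolar ribosome biogenesis genes, which MYC is known to drive, were 30, of which 1 rose and 2 fell, with a median of -0.17. Nucleolin (NCL, log2 -0.21), nucleophosmin (NPM1, -0.20) and fibrillarin (FBL, -0.27) were not called, and LYAR fell from 20.8 ± 1.14 to 11.3 ± 0.33 eRPKM. Of 79 cytosolic ribosomal protein genes 1 fell, RPS10 (log2 -0.74), none rose, and the median was -0.12.

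Stress and inflammatory genes were mixed. Of 18 NF-kB cytokines and feedback genes 7 rose and 2 fell, with a median of 0.43. TRAF1 rose from 2.96 ± 0.0595 to 9.94 ± 0.18 eRPKM (log2 1.6), the chemokine CCL20 from 4.85 ± 0.425 to 11.5 ± 1.98 eRPKM (1.16) and the apoptosis inhibitor BIRC3 from 7.53 ± 1.35 to 16.9 ± 1.18 eRPKM (1.12). TNFAIP6 and the chemokine CCL2 (log2 -0.60) fell. Of 31 interferon-stimulated genes 8 rose and 2 fell. IFIT2 was read 1.82, 2.09 and 2.02 with siCtrl and 8.97 and 11 with siRAD21 and IFIT3 5.46, 6.17 and 5.31 with siCtrl and 22.2 and 22.4 with siRAD21, log2 2.08 and 1.89, whereas their neighbour IFIT1 was not called (-0.35), nor was ISG15 (-0.19). The RNA sensor DDX58 rose from 5.56 ± 0.163 to 13 ± 0.0384 eRPKM and OAS3 fell from 8.72 ± 0.289 to 5.58 ± 0.116 eRPKM. Without siCtrl replicate 2 or without siRAD21 replicate 1, only 1 interferon-stimulated gene fell. Of 12 antigen presentation genes 1 rose (TAP1, log2 0.60) and 2 fell, CD74 (-0.63) and NLRC5 (-0.66). The fall of CD74 was lost without any 1 of siCtrl replicates 1 and 2 and siRAD21 replicates 1 and 2, and without siCtrl replicate 1 a second gene of this list rose. HLA-B and HLA-C were not called (log2 0.14 and 0.10).

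Of 21 immediate early genes 4 rose and 3 fell. The orphan nuclear receptors NR4A1 (from 14.6 ± 3.21 to 31.2 ± 0.192 eRPKM), NR4A2 (from 1.43 ± 0.0331 to 7.22 ± 0.283 eRPKM) and NR4A3 (from 0.46 ± 0.151 to 3.48 ± 0.514 eRPKM) rose, with log2 fold changes of 1.09, 2.0 and 2.06, as did KLF2 (1.18). EGR2 (-0.93), FOSL2 (-0.60) and IER3 (-0.55, lost without siRAD21 replicate 1) fell, and FOS (0.02), JUN (0.11) and EGR1 (-0.32) were not called. Among 29 genes of the ATF4 and unfolded protein responses 9 fell and 4 rose. The serine synthesis enzymes PHGDH (from 30 ± 0.478 to 10.5 ± 0.48 eRPKM, log2 -1.48) and PSAT1 (from 39.4 ± 1.6 to 19.6 ± 2.06 eRPKM, -0.99), the cystine transporter SLC7A11 (-1.06) and CHAC1 (-1.37) fell, while SESN2 (0.96), a sestrin that both ATF4 and p53 induce, and EDEM1 (0.76), of the degradation of misfolded glycoproteins, rose. ATF4 (-0.09), DDIT3 (0.35) and the chaperone HSPA5 (-0.22) were not called.

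In metabolism, 6 of 27 cholesterol synthesis and SREBP genes fell and 1, not named here, rose by a call at the threshold that was lost without any 1 of siCtrl replicates 2 and 3 and siRAD21 replicate 1. INSIG1, the sterol-sensitive retention protein, fell from 31.2 ± 1.03 to 14.6 ± 0.177 eRPKM (log2 -1.07), and the synthesis enzymes EBP (-0.88), DHCR7 (-0.82) and MVK (-0.78) fell with it, while SQLE (-0.06) was not called. Of 33 lysosome and autophagy genes 8 rose and 2 fell. WIPI1 (1.09) and GABARAPL1 (1.04), both of autophagosome formation, rose, as did the protease TPP1 (from 11.2 ± 0.716 to 21.5 ± 2.05 eRPKM, 0.91) and the kinase ULK1 (0.90), which starts autophagy. TFEB, a transcription factor of lysosome genes, fell from 3.84 ± 0.357 to 1.82 ± 0.175 eRPKM, and the second fall, that of the galactosidase GLA (log2 -0.50), was lost without siCtrl replicate 2, siCtrl replicate 3 or siRAD21 replicate 1. Of 31 hypoxia and glycolysis genes 2 rose and 4 fell. The glucose transporter SLC2A3 rose (0.81) and PFKFB4 (-1.19) and EGLN3 (-1.12) fell, while LDHA (-0.28), PGK1 (-0.38) and VEGFA (0.04) were not called. The other rise, of ADM (log2 0.60), was lost without siRAD21 replicate 1. The median of this list was -0.09, and 0.04 under quantile normalization.

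Signalling genes moved in both directions. Of 27 genes of the TGF-beta and BMP pathways 10 fell and 2 rose (4 under quantile normalization). The inhibitory SMAD6 fell from 12.7 ± 0.881 to 3.63 ± 0.485 eRPKM (log2 -1.68) and the pseudoreceptor BAMBI from 11.9 ± 0.258 to 3.94 ± 0.459 eRPKM (-1.48). The ligands TGFB2 (-1.05), INHBA (-0.94) and TGFB3 (-0.89) fell, and the activin antagonist follistatin (FST) rose from 21.8 ± 1.82 to 51.3 ± 1.35 eRPKM (log2 1.22). SMAD7 (0.22) was not called. Of 31 Wnt, Notch and Hedgehog genes 11 fell and 3 rose. The Wnt antagonist SFRP1 stood at 14, 16.1 and 17 with siCtrl and 1.91 and 1.69 with siRAD21 eRPKM (log2 -2.82, adjusted p = 8.90e-12). The Hedgehog antagonist HHIP (-1.37), the Notch ligand JAG1 (-1.06), the R-spondin receptor LGR4 (-1.02) and WNT5B (-1.09) fell too. FZD1, PTCH1 and GLI3 rose by 0.58, 0.58 and 0.53, of which FZD1 alone was still called without siCtrl replicate 2. Of 26 YAP, TAZ and SRF targets 2 rose (4 under quantile normalization or with the removal of duplicates undone) and 3 fell, with CTGF (-0.01) and CYR61 (0.01) not called. Smooth muscle actin (ACTA2) rose from 2.6 ± 0.148 to 9.67 ± 1.7 eRPKM and the tropomyosin TPM1 fell from 68.2 ± 1.8 to 36.5 ± 0.894 eRPKM. The median of this list was -0.04, and 0.03 under quantile normalization.

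Of 33 growth factors and their receptors 10 rose and 10 fell. KIT ligand (KITLG) rose from 8.81 ± 0.504 to 25 ± 1.42 eRPKM (log2 1.45), IGFBP7 from 12.6 ± 0.0627 to 27.7 ± 1.43 eRPKM (1.1), EGFR from 4.24 ± 0.641 to 7.67 ± 0.536 eRPKM (0.79) and PDGFRA from 10 ± 0.104 to 17.3 ± 0.466 eRPKM (0.76). Beside IGFBP5, the neurotrophin receptor NGFR fell from 4.89 ± 0.685 to 1.05 ± 0.146 eRPKM (-1.79), VEGFC from 6.49 ± 0.871 to 2.68 ± 0.453 eRPKM (-1.14), PDGFB from 6.73 ± 1.72 to 3.03 ± 0.168 eRPKM (-1.01) and FGF2 from 8.4 ± 0.35 to 3.94 ± 0.00938 eRPKM (-1.0). The list had a median of 0.04, and of -0.001 with the replicate number as a block. Of 28 ligands and receptors known from the nervous and cardiovascular systems 10 fell and 3 rose. After DRD1 and SLITRK6 the largest falls were in the sphingosine phosphate receptor S1PR3 (from 16.9 ± 0.499 to 4.73 ± 0.462 eRPKM, log2 -1.74), the adhesion receptor ADGRG1 (-1.58) and the prostaglandin receptor PTGER2 (-1.45). NPR2, the receptor of C-type natriuretic peptide, rose with NPPB, from 5.1 ± 0.728 to 10.2 ± 1.27 eRPKM (log2 0.94), while the related peptide NPPA was not called (0.18).

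Extracellular matrix and adhesion genes rose more often than they fell. Of 21 collagens 8 rose (38.1%) and 1 fell, with a median of 0.44. COL13A1, a transmembrane collagen, was read 5.42, 6.07 and 5.34 with siCtrl and 19.2 and 18.1 with siRAD21 (log2 1.65) and COL5A3 2.49, 1.75 and 2.24 with siCtrl and 5.67 and 5.05 with siRAD21 (1.15). COL5A1 was read 17.7, 7.88 and 10 with siCtrl and 24.7 and 20.8 with siRAD21, and COL6A1 35.9, 17.2 and 22.1 with siCtrl and 39.2 and 36.4 with siRAD21, so siCtrl replicate 1 lay nearer to the siRAD21 libraries than to the other siCtrl libraries in COL5A1 and COL6A1. Both calls were lost without siCtrl replicate 2 or without siRAD21 replicate 1, and that of COL6A1 also without siCtrl replicate 3 or siRAD21 replicate 2. Only 5 collagens rose without siCtrl replicate 2, and likewise without siRAD21 replicate 1. COL9A2 fell from 16 ± 0.616 to 10.3 ± 0.394 eRPKM. COL1A1 was not called (log2 0.67), and neither were COL4A1 (0.10) and COL4A2 (0.27). Of 24 integrins and laminins 9 rose and 3 fell. The laminin chains LAMA1 (from 10.4 ± 0.298 to 24.3 ± 0.637 eRPKM, log2 1.18) and LAMA5 (from 8.39 ± 1.57 to 17.5 ± 2.66 eRPKM, 1.03) and their receptor chain ITGA6 (from 31.9 ± 1.03 to 58.1 ± 2.09 eRPKM, 0.86) rose, as did the leukocyte integrin ITGB2 from low levels (0.573, 0.402 and 0.517 with siCtrl and 3.95 and 3.01 with siRAD21). ITGA4, of the fibronectin receptor that lymphocytes use, fell from 5.33 ± 0.27 to 1.61 ± 0.0446 eRPKM (log2 -1.46), and ITGB1 (-0.16) and ITGAV (-0.37) were not called. Of 37 matrix enzymes, crosslinkers and glycoproteins 8 rose and 4 fell. Lumican (LUM), a collagen-binding proteoglycan, was read 6.06, 8.07 and 5.78 with siCtrl and 29.6 and 33.1 with siRAD21 (log2 2.17), ADAMTS12 rose by 1.26 and MMP3 by 1.03, while the hyaluronan synthase HAS2 fell from 7.17 ± 0.608 to 1.81 ± 0.188 eRPKM (-1.73), thrombospondin 1 (THBS1) from 77.6 ± 2.65 to 38.7 ± 1.69 eRPKM (-0.99) and SERPINE2, a protease inhibitor, from 30.3 ± 1.36 to 18.5 ± 0.0657 eRPKM (-0.70). FN1 (0.25), SPARC (0.14) and TIMP1 (0.11) were not called.

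Of 12 osteoblast lineage genes 4 fell and 1 rose. RUNX2, the lineage factor, was read 8.5, 6.51 and 7.44 with siCtrl and 6.23 and 5.19 with siRAD21 (log2 -0.36, not called), while the decoy receptor osteoprotegerin (TNFRSF11B, log2 -1.32), SOX9 (-0.89), MEF2C (-0.80) and cadherin 11 (CDH11, -0.62) fell and CADM1 (0.89) rose. Without siRAD21 replicate 2 a second gene rose. The median of this list, -0.21, was 0.01 among genes with a mean of at least 5 eRPKM. Axon guidance genes and cadherins, 46 in all, were called in both directions, 16 higher (34.8%) and 12 lower (26.1%). NTN4, a netrin of basement membranes, was read 4.94, 5.44 and 5.15 with siCtrl and 29.4 and 30.7 with siRAD21 (log2 2.43, adjusted p = 3.72e-11) and the semaphorin receptor PLXNA2 1.67, 1.19 and 1.44 with siCtrl and 10.8 and 8.89 with siRAD21 (log2 2.42, adjusted p = 6.32e-09). PCDH7 (1.69), CDH13 (1.66), the ligand SLIT2 (1.63) and CDH10 (1.58) rose too. Besides SEMA3A, its relative SEMA3E fell from 10.9 ± 1.08 to 2.79 ± 0.0927 eRPKM (log2 -1.79), and NRP1, the receptor of SEMA3A, from 19.5 ± 1.21 to 7.21 ± 0.0843 eRPKM (log2 -1.37), while PLXND1, the receptor of SEMA3E, was not called (-0.05). The ephrin receptor EPHA5 (-1.93) and the netrin receptor UNC5C (-1.9) fell as well.

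HOX and clustered protocadherin genes lie in tandem arrays in which cohesin and CTCF are known to shape the use of enhancers and promoters. Of 30 HOX genes tested 6 rose and 8 fell. Toward the 3′ end of the HOXA cluster on chromosome 7, HOXA2 was read 0.693, 0.899 and 1.3 with siCtrl and 2.22 and 2.26 with siRAD21 eRPKM and HOXA3 0.827, 1.26 and 0.907 with siCtrl and 3.66 and 3.21 with siRAD21. In both the siRAD21 libraries were above every siCtrl library, with log2 fold changes of 0.92 (adjusted p = 4.02e-04) and 1.4 (adjusted p = 3.03e-05). HOXA4 rose from 2.55 ± 0.127 to 5.15 ± 0.0654 eRPKM and HOXA7 from 1.48 ± 0.136 to 2.84 ± 0.0977 eRPKM (log2 0.89 and 0.76), whereas HOXA5 (0.16) and HOXA6 (-0.17) between them were not called. Toward the 5′ end HOXA9 fell by 0.55 on the log2 scale, a call lost without siCtrl replicate 2 or siRAD21 replicate 1, HOXA10 (0.26) and HOXA11 (-0.32) were not called, and HOXA13 (chr7:27233122-27239710, minus strand, GRCh37) was read 2.25, 2.58 and 2.99 with siCtrl and 1.17 and 1.09 with siRAD21 (log2 -0.92, adjusted p = 1.48e-04). Outside HOXA, HOXD9 rose (0.61) and HOXC11 (-1.01), HOXB3 (-0.62), HOXB9 (-0.57), HOXB13 (-0.57) and HOXD10 (-0.56) fell. With a pseudocount of 1 only 5 HOX genes fell. Without siCtrl replicate 3 it was also 5, HOXB13 and HOXD10 not among them, and the HOXD10 call was lost without either siRAD21 replicate too.

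**Figure D4:**
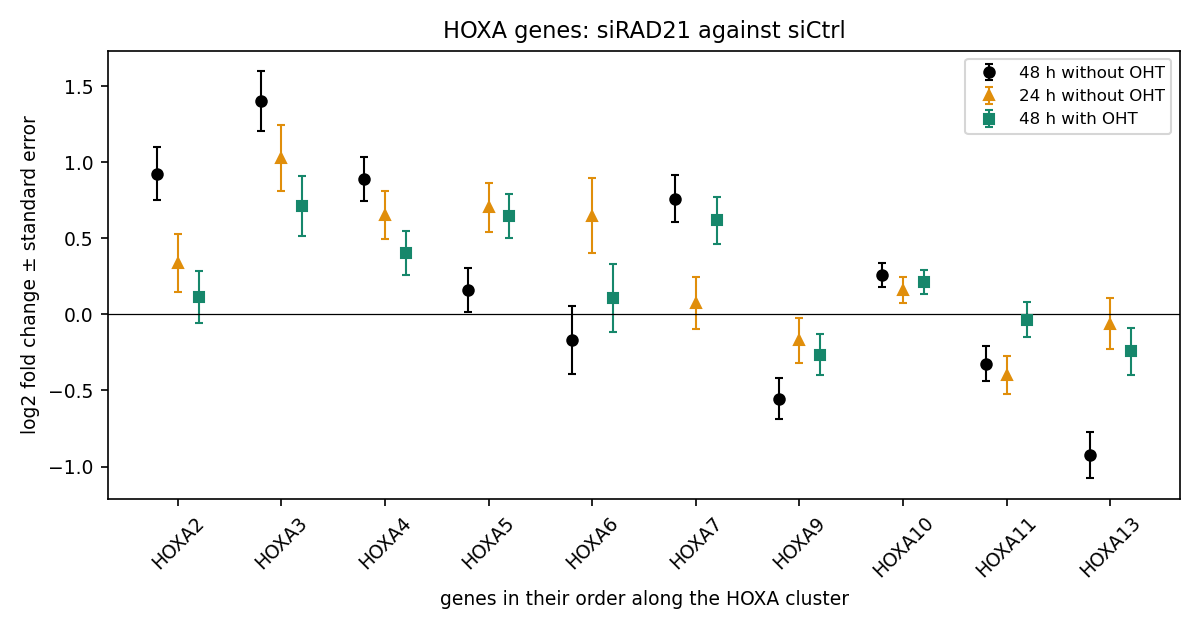
Genes of the HOXA cluster, from HOXA2 to HOXA13, are drawn in their order on chromosome 7 with the 3′ end of the cluster at the left, with the log2 fold change ± its standard error in siRAD21 against siCtrl cells on the y axis for 48 h (circles), for 24 h (triangles) and for 48 h with OHT (squares). At 48 h without OHT HOXA2, HOXA3 and HOXA4 lie between 0.89 and 1.4, and HOXA13 lies at -0.92.

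Protocadherins of the alpha, beta and gamma arrays on chromosome 5 give neurons their surface identity, and single promoters are chosen with the help of CTCF and cohesin. Of 23 tested, 8 rose and 5 fell, and the others were low: 33 of the 56 members did not reach the level for testing. PCDHB2 was read 2.71, 2.49 and 3.77 with siCtrl and 11.9 and 12.6 with siRAD21 (log2 1.88, adjusted p = 5.44e-08) and PCDHA12 2.62, 2.34 and 3.31 with siCtrl and 10.2 and 10.1 with siRAD21 (log2 1.72, adjusted p = 4.46e-07). In both the groups were apart by more than 3-fold. PCDHA4 (0.92) and PCDHB6 (0.87) rose, and PCDHGB5 (-0.92), PCDHGB1 (-0.86), PCDHGA4 (-0.85), PCDHB18P (-0.85) and PCDHB8 (-0.60) fell. The median of 0.03 turned to -0.10 under quantile normalization, to -0.19 among genes with a mean of at least 5 eRPKM and to -0.01 without siRAD21 replicate 1. Under quantile normalization 5 rose and 9 fell, and without siCtrl replicate 2 the falls were 8. Members of the alpha and gamma arrays share their last exons, and beta members are close copies, so the reads of single members are uncertain.

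Of the tested markers of other cell types, KRT14 and KRT5 fell, and EPCAM (log2 -0.50) and CLDN4 (-0.18) were not called. Among those too low for testing, the endothelial CDH5 was higher on average (0.255 to 1.08 eRPKM). KRT20 (0.307 to 0.129) and PTPRC (0.259 to 0.13) were lower. The summed level of the 15 markers was 47.7 to 49.9 eRPKM in siCtrl libraries and 30.8 to 33.2 in siRAD21 libraries, most of it CLDN4 and, in siCtrl libraries, KRT14. Other keratins were looked up after KRT14 was seen to fall: KRT6B fell from 3.71 ± 0.238 to 0.334 ± 0.0746 eRPKM (log2 -2.34), KRT16 from 3.0 ± 0.404 to 0.579 ± 0.0115 eRPKM (-1.69) and KRT75 from 52 ± 1.25 to 12.2 ± 0.109 eRPKM (-2.04). KRT8 (-0.13) and KRT18 (-0.02), the keratins of simple epithelia, and KRT17 (-0.02) were not called. Keratin genes share stretches of sequence, and reads may be split between copies.

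Most genes called at 24 h were called in the same direction at 48 h. Of the 1883 genes higher at 48 h, 660 were higher at 24 h, which is 35.1% of the 48 h list and 75.5% of the 24 h list, none was lower, and their median log2 fold change was 0.77 at 48 h and 0.40 at 24 h. Of the 1676 genes lower at 48 h, 314 were lower at 24 h (18.7% of the 48 h list and 80.5% of the 24 h list), 12 were higher, and the medians were -0.74 and -0.21. The replication, recombination and mitotic groups were near 0 at 24 h: none of 34 licensing genes was called then, and their median was -0.08. For 24 of the 34 the 48 h effect was lower than the 24 h effect by the test of the difference, as it was for 17 of 29 fork genes, 19 of 27 recombination genes and 13 of 50 mitotic genes. Of the 27 p53 targets 7 were already higher at 24 h, with a median of 0.31, and for 6 the 48 h effect was higher. KRT14 (log2 -0.33 at 24 h), CXCL14 (-0.01) and IGFBP5 (-0.48) had not been called at 24 h, whereas DRD1 (-3.41) and NPPB (2.38) had. Among the 12 genes higher at 24 h and lower at 48 h, HAS2 (log2 0.58 at 24 h, -1.73 at 48 h), RNF43 (0.52 and -0.99), CCL2 (0.79 and -0.60) and KRT5 (0.93 and -0.77) are members of the lists above. The 2 siRAD21 libraries at 24 h differed by little more than the sampling noise of their reads (chi-square per gene 1.037 over 12374 genes). They may be 1 sample, and the 24 h calls and the differences between times were not refitted with them counted as 1.

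With OHT given, fewer genes of the replication groups were called. Of the 1883 genes higher without OHT, 939 were higher with OHT (49.9%, and 73.9% of the OHT list) and 9 were lower. Of the 1676 lower genes, 767 were lower with OHT (45.8%, and 66.1% of the OHT list) and 5 were higher. Medians with OHT were 0.51 and -0.46 in those 2 groups of genes. Of the licensing genes 2 of 34 fell with OHT, with a median of -0.19, and for 13 the effect without OHT was lower by the test of the difference, as for 12 of 29 fork genes, 9 of 27 recombination genes and 2 of 50 mitotic genes. Of the p53 targets 14 of 27 were higher with OHT, with a median of 0.54, and for 1 the effects differed. CXCL14 had a log2 fold change of 0.15 with OHT against -3.25 without, a difference of -3.39 (adjusted p = 2.42e-08). CHAC1 (0.39 with and -1.37 without OHT), SLC7A11 (0.18 and -1.06) and COL5A1 (-0.21 and 0.99) also had values on both sides of 0, of which those with OHT were not called. The 2 siRAD21 OHT libraries at 48 h differed by no more than the sampling noise of their reads (chi-square per gene 0.982 over 13001 genes) and may be 1 sample. With their mean counted as 1 sample, taken to vary like the other groups, 3558 genes were called at 48 h without OHT, 1177 rose and 1071 fell with OHT, and the effects without and with OHT differed for 825 genes (416 upward, 409 downward). The counts of differences given here for the licensing, fork, recombination, mitotic and p53 groups were as large in that fit, and the difference of CXCL14 had an adjusted p of 7.23e-07.

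**Figure D5:**
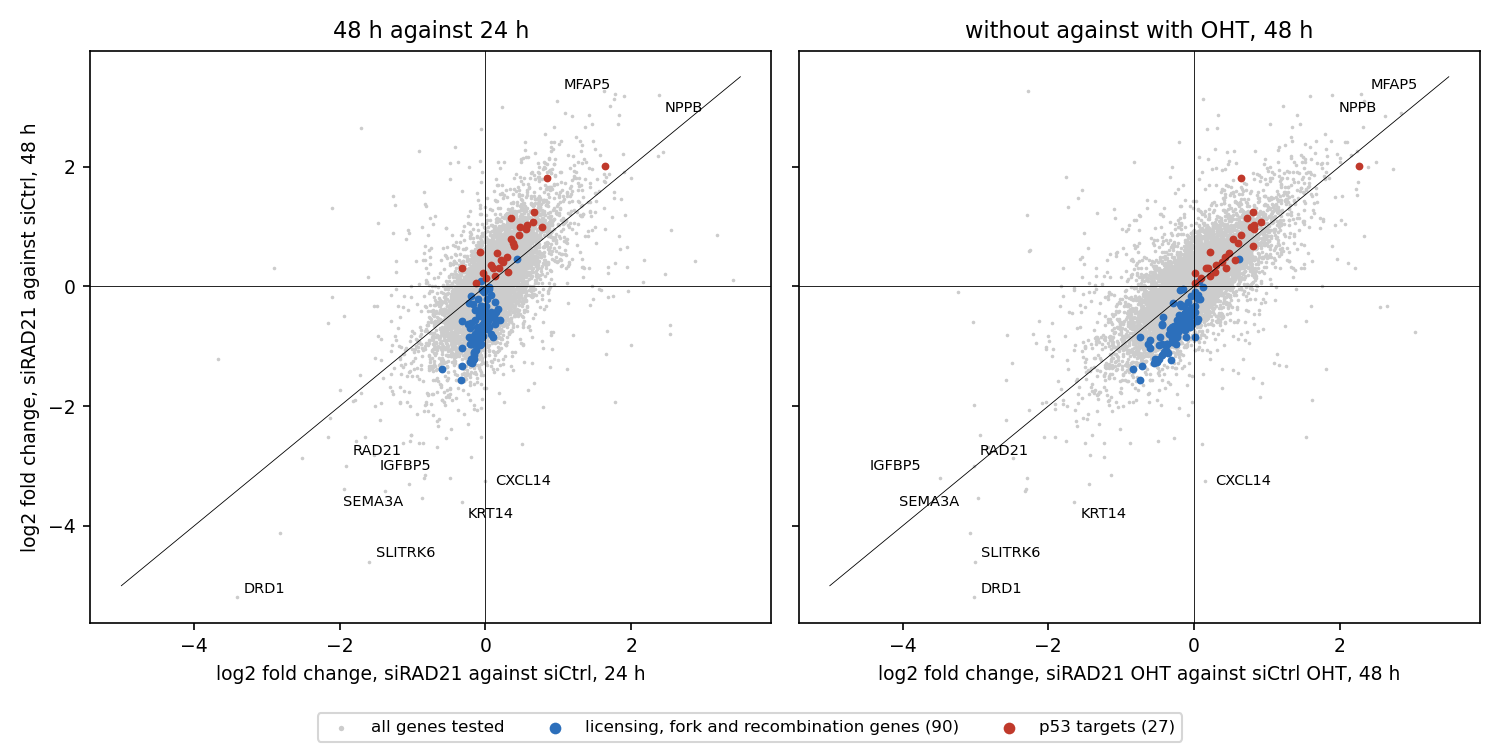
Each point is a gene, with its log2 fold change in siRAD21 against siCtrl cells at 48 h without OHT on the y axis and, on the x axis, that at 24 h (left) or at 48 h with OHT (right). The line marks equal effects. Licensing, fork and recombination genes (blue) lie below 0 on the y axis except for 1 licensing and 1 fork gene, while p53 targets (red) lie above 0 on the y axis, and CXCL14 lies near 0 on both x axes.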

How the data were processed

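Total RNA of U2OS-MycER cells was rRNA-depleted, made into libraries with a kit that does not mark strand, and sequenced. The authors trimmed the reads, aligned them to hg19 with TopHat2 (2.0.8 in the submitters' processing notes, which also name featureCounts 1.4.5 and SAMtools), removed PCR duplicates and deposited eRPKM values, that is RPKM over exons, in 1 table of 18 libraries. The authors called differential expression with DESeq2, which needs counts. Here log2(eRPKM + 0.5) was fitted with limma 3.58.1 (R 4.3.3), with 8 group means over all 18 libraries, no block and a variance trend. Genes with a mean of at least 1 eRPKM were tested, and p-values were adjusted by Benjamini-Hochberg over all of them. The contrasts were siRAD21 against siCtrl at 48 h, at 24 h and at 48 h with OHT, and the differences of the first from the other 2. Groups came from the titles of the libraries. Folds on this scale understate changes of low genes.

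Reads were recovered from the values as whole numbers (within 0.01 of a read) for 21568 of 23399 genes (92.2%), at depths of 9742318 to 10912005 reads in the 5 libraries. They served for the floors of 3 reads per library, which cover counting error only, and for a voom fit. The limma fit, but not the recovery of reads, was tested on simulated data. Gene positions are from GENCODE on GRCh37, and promoters from the RefSeq table on GRCh38.p14. Tables were handled in pandas 2.3.3 and numpy 2.4.6 under Python 3.11.15, and plots drawn in matplotlib 3.10.9.

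Genes were named by rule: RAD21 and the cohesin list, the 12 largest called rises and falls among genes with at least 5 eRPKM in 1 group and no overlap (small RNA symbols left out), the 6 largest rises and falls in eRPKM, and in each of 36 lists up to 6 called members per direction and defining members not called. The comparison, the lists and the members were chosen with earlier results of these data known, so their counts are descriptions. Alternatives were a pseudocount of 1 or 0.1, a minimum mean of 5 eRPKM or none, median centring, quantile normalization, a fit of the 2 groups alone, the replicate number as a block, a constant variance, a robust empirical Bayes step, averaging the siRAD21 OHT 48 h libraries, voom, other fold thresholds and leaving out each library. Undoing the removal of duplicates was chosen after seeing the data. Other experiments of the study were not analysed here, and some genes that meet the naming rule are not reported here.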

Additional observations from a re-analysis of the deposited data

Results flagged for a closer look

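Of 52 genes named by rule outside the lists or in the cohesin list, 30 had an effect at 48 h that differed from that at 24 h, and 20 an effect without OHT that differed from that with OHT, by limma's contrast for the difference itself (Benjamini-Hochberg adjusted p below 0.05 and a log2 difference past 0.5). Over all genes tested, the shares were 3.85% upward and 6.86% downward between times, and 3.97% and 3.33% between cells without and with OHT. Most of the 52 were named for the size of their effect at 48 h without OHT, which each difference contains, so these counts and values are descriptions and nothing is read from their being above those shares. Differences below are on the log2 scale. Groups hold 2 or 3 libraries, so single libraries were not tested for standing apart.

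Between 48 h and 24 h, the falls of RAD21, CDCA5 and ESCO2 differed by -1.08, -0.70 and -0.56. MFAP5, whose log2 fold change was 0.99 at 24 h and 3.09 at 48 h, differed by 2.1. Rises were larger at 48 h by 1.44 in LINC01405, 0.81 in NPPB, 1.27 in ZBED2, 1.8 in LINC01164, 1.45 in KLHL30, 1.65 in DCLK1, 0.89 in SCEL, 1.3 in IL24, 1.71 in CARD16, 1.72 in SAA1, 1.25 in ALS2CL and 0.85 in SFTA1P. KRT14 (-0.33 at 24 h, -3.6 at 48 h) differed by -3.27, CXCL14 (-0.01 and -3.25) by -3.23 and IGFBP5 (-0.48 and -3.2) by -2.72. For the other genes that fell, the difference was -1.77 in DRD1, -3.0 in SLITRK6, -1.3 in TNFAIP6, -2.67 in SEMA3A, -2.05 in LINC00639, -1.44 in MN1, -2.25 in SOSTDC1, -2.36 in HSD17B3, -2.31 in ROR1, -1.23 in HAPLN1 and -0.76 in PPP1R14B. Differences of SLITRK6 and TNFAIP6, at or near 0 in siRAD21 cells at 48 h, depend on the pseudocount. The 2 siRAD21 libraries at 24 h may be 1 sample, and these differences were not refitted with them counted as 1.

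Between cells without and with OHT at 48 h, CXCL14 (-3.25 without, 0.15 with) differed by -3.39. The rises of LINC01405, NPPB, ZBED2, MFAP5 and KLHL30 were larger without OHT by 0.92, 1.29, 1.59, 0.75 and 1.46, and those of SCEL, CARD16, ALS2CL and SFTA1P by 1.25, 1.31, 1.15 and 0.66. The falls of DRD1, SLITRK6, TNFAIP6, KRT14 and SEMA3A differed by -2.17, -1.59, -1.05, -1.95 and -0.57, and those of LINC00639, MN1, SOSTDC1, HSD17B3 and ROR1 by -1.11, -1.08, -1.86, -0.92 and -2.0. The 2 siRAD21 OHT libraries may be 1 sample, and with their mean counted as 1, 14 of the 20 differences passed, those of LINC01405, CARD16, TNFAIP6, SEMA3A, MN1 and HSD17B3 not among them. Examples that did not pass in either fit were IGFBP5 (-3.49 with and -3.2 without OHT) and DCLK1 (2.62 and 2.85).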

How the results depend on the processing

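RAD21 was lower in every setting tried, with a log2 fold change of -3.02 to -2.96 when single libraries were left out. The counts depend on the thresholds. With no fold threshold 8650 genes were called (4074 higher, 4576 lower), with a threshold of 1 they were 968 (535 and 433), and among genes with a mean of at least 5 eRPKM 2289, of which 1073 were higher. The differences between times numbered 3236 with no fold threshold and 347 with a threshold of 1, and those between cells without and with OHT 2587 and 200, and 720 among genes with a mean of at least 5 eRPKM. Leaving out single libraries gave 3380 to 3713 genes in all, 1723 to 1969 higher and 1626 to 1760 lower, 1373 to 1645 differences between times and 834 to 1249 between cells without and with OHT. A fit with the replicate number as a block called 1911 higher and 1621 lower, 3532 in all, of which 3358 were among the 3559. The numbers of siCtrl and siRAD21 libraries share only a number (deviations of the 2 same-numbered pairs correlated at 0.14 each), so this fit is given here once. The share of called genes that were higher was 52.9%, 50.8% after median centring and 49.9% under quantile normalization. Of 412 genes named or called in the lists none changed direction. Under quantile normalization 37 lost their call, without siRAD21 replicate 1 36, without siCtrl replicate 2 23 and with a pseudocount of 1 22, and with a fold threshold of 1 264 did. Among genes with a mean of at least 5 eRPKM fewer members of the lists were tested, and counts of several lists were lower by over 1.5 times. Otherwise the cause was not tested. Low genes are limited by depth, as 1 read more or less moves them, and the most abundant by the removal of duplicates.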

Other observations

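Calls were spread unevenly over gene classes. Of 604 long noncoding RNAs 19.9% were higher and 7.12% lower (median log2 0.17), against 12.2% and 11.8% of 12284 protein-coding genes (median -0.03). Of 221 small nucleolar RNAs 2 were higher (0.905%) and 25 lower (11.3%), and of 366 microRNA genes 12% were higher and 4.1% lower (median 0.34). Reads of short RNAs within a host gene can come from the host transcript. Gene class was not separated from level or length in these counts.

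By the span of the gene, the longest of 5 groups of equal size (93.1 to 2305 kb) had 18% of genes higher and 11.1% lower, and the shortest 9.88% and 10.5%. By level, 20.2% of genes between 2 and 5 eRPKM were higher and 11.2% lower, whereas above 40 eRPKM the shares were 2.87% and 7.32%. Level and length were not separated from each other in these counts.

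Neighbouring protein-coding genes that do not overlap were compared as pairs. Of pairs in which both genes were called, the direction was the same in 92 of 151 with a gap of up to 10 kb (60.9%), in 109 of 183 between 10 and 50 kb (59.6%), in 110 of 174 between 50 and 200 kb (63.2%) and in 87 of 169 beyond 200 kb (51.5%). Pairs share genes and are not independent, so these are descriptions with no test.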
